A study of Mus musculus with 48 samples.

Results

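The proteasome subunit genes were taken as every gene in the count table whose symbol begins with Psm, goes on with 1 of the letters a to g and ends in a number, a rule that uses names only. It found 43 of the 23930 genes listed: 6 genes of the 20S alpha ring, 7 constitutive genes of the 20S beta ring, 4 inducible genes, 6 ATPases and 11 non-ATPases of the 19S particle, 3 chaperones of 19S assembly, 3 chaperones of 20S assembly, and a group of 3 genes with the remaining activators and the inhibitor. Psma3, Psma5, Psmb5, Psme2 and Psmg3 were not analysed here. Of the 43 genes, 42 passed the filter on low counts and were tested. The remaining one, Psmb11, the catalytic subunit of the thymus form, had 0 counts in the PBS groups at 24 h and 72 h and in LX-A1656 at 24 h, which allows up to 0.0776, 0.0794 and 0.0847 CPM (counts scaled to library size), and at most 10 counts in any group, limits that cover counting error only.

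Mouse livers were taken from animals given PBS, the vehicle, or 1 of 3 gapmers against Scarb1, LX-A1656, LX-A2003 or LX-A3928. Samples were taken at 24 h, 72 h and 168 h, given in the series as days 1, 3 and 7 counted from the first administration, with 4 replicate libraries in each of the 12 groups. A gapmer is a short modified strand whose DNA-like centre directs RNase H to cleave the paired transcript. The sources used here give no dose, oligonucleotide sequence, strain, sex or age, so matched times do not establish matched doses. The labels do not tie replicates to separate animals, and p-values then measure only how these samples spread, which may be technical. Each gene was read through a designed amplicon, so a level reports on that amplicon alone.

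The proteasome degrades proteins tagged with ubiquitin. Its 20S core is a barrel of alpha and beta rings whose catalytic sites lie inside, and the 19S particle at its ends binds ubiquitin chains, removes them and unfolds the substrate with a ring of ATPases. Interferon induces alternative catalytic subunits, Psmb8, Psmb9 and Psmb10, which replace Psmb5, Psmb6 and Psmb7 in newly made cores and form the immunoproteasome. Psme1 and Psme2 form the 11S activator that can take the place of the 19S particle. In liver the constitutive form is the usual one in resting hepatocytes, while immune cells carry the inducible subunits.

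The upstream sequences below are shown because these genes carried the findings: the 4 inducible genes differed together between oligonucleotides, and Psmd8 and Psmd14 moved in opposite directions. Each is the 250 bases before the annotated start, 5′ to 3′ on the gene's strand, from RefSeq on GRCm38.p6, and capitals mark matches to the motifs searched.
Psmb8, chr17:34197945-34198194, plus strand: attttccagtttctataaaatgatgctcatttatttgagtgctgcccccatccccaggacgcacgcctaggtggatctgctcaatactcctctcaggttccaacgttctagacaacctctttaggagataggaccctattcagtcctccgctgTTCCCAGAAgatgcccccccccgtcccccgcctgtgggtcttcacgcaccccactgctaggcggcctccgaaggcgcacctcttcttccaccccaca
Psmb9, chr17:34187331-34187580, minus strand: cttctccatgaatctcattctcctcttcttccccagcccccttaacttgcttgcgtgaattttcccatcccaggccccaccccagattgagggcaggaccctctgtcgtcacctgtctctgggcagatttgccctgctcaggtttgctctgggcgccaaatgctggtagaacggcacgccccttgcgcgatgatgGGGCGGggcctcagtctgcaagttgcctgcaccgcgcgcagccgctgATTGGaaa
Psmb10, chr8:105938393-105938642, minus strand: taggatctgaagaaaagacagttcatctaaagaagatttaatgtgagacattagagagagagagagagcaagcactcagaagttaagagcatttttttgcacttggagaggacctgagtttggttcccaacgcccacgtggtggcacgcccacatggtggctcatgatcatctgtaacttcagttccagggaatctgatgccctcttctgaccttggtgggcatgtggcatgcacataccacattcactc
Psme1, chr14:55578244-55578493, plus strand: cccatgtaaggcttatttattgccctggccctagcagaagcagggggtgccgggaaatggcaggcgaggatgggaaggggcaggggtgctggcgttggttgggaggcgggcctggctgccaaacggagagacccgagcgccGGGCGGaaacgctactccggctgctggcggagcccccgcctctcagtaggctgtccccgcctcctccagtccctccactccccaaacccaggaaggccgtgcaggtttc
Psmd8, chr7:29180674-29180923, minus strand: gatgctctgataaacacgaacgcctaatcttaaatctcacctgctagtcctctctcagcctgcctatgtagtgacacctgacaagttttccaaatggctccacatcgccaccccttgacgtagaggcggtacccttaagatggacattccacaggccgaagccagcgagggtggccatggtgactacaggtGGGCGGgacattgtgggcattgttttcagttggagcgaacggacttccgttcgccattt
Psmd14, chr2:61711444-61711693, plus strand: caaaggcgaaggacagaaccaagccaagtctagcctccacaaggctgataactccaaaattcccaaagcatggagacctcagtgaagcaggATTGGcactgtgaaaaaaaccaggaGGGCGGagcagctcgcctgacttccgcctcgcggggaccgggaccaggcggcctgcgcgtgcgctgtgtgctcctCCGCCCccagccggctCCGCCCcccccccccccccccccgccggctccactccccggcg

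Motifs were searched on both strands of 300 bases, the 250 before and the 50 after each start, in 37 windows of the 35 members that matched the RefSeq table, and in all 32851 windows of that table. The interferon-stimulated response element core, GAAA and again GAAA with any 2 bases between them, was found in 13.5% of member windows (Psmb3, Psmd4, Psmd9, Psme1 and Psmg4) and in 3.44% of all windows. The gamma-activated site, TTCNNNGAA, was found in 8.11% of member windows (Psmb8, Psmd2 and Psmg1) and in 8.3% of all windows. The NF-kB site was found in 16.2% and 8.46%, the antioxidant response element core, TGACNNNGC, in 13.5% and 12.4%, and the CCAAT box in 35.1% and 37.4%. The GC box, GGGCGG, was found in 59.5% of member windows, in 35.7% of all windows and in 59.3% of the windows of tested genes. Among the inducible genes, Psmb8 held a gamma-activated site, Psmb9 a CCAAT box and a GC box, Psme1 a GC box upstream and an interferon-stimulated element after its start, and the window of Psmb10 held none of these motifs. A match is a run of letters and was not tested as a binding site.

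Library totals ran from 8140065 to 17191129 counts. Scarb1, the targeted transcript, averaged 271.6, 304.4 and 319.7 CPM in PBS at 24 h, 72 h and 168 h and between 4.42 and 48.1 CPM in the 9 oligonucleotide groups and the hepatocyte marker Alb was present in every library. Libraries of 1 group were compared by a chi-square of their counts per degree of freedom, and at 72 h single libraries of LX-A1656 (replicate 1), LX-A2003 (replicate 1) and LX-A3928 (replicate 4) differed from the other 3 by more than 2 times the highest value among those 3. At 168 h replicate 3 of LX-A3928 differed by 130.8 to 215.5, against 14.07 to 82.7 among the others, which is under 2 times. Replicate 4 of LX-A1656 (43.4 to 48.1 against 10.04 to 25.9) and replicate 4 of LX-A2003 (35.6 to 83.0 against 12.8 to 21.6) also lay clear of the others of their groups at 168 h. Calls that were lost without 1 of these libraries are given beside the result. The comparisons of the 3 oligonucleotides with PBS at a given time share the same PBS libraries, so their results are not independent of each other.

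Here a gene rose, fell or changed when its adjusted p was under 0.05 by the quasi-likelihood test of edgeR, with p-values adjusted over all 12672 tested genes by the Benjamini-Hochberg method. Levels are CPM scaled with TMM factors, and fold changes are log2 differences ± SE with n = 4 libraries per group. Where groups are said not to overlap, the share of all tested genes doing the same was not counted. At 24 h no member changed with any oligonucleotide, against a background over all tested genes of 2.86% changed for LX-A1656, 2.09% for LX-A2003 and 3.26% for LX-A3928. At an unadjusted p under 0.05 there was 1 member in each of these comparisons, and DESeq2 called 0 in each. The median log2 difference of the members was 0.07, 0.05 and -0.03. Among the inducible genes at this time, Psmb8 in single libraries of PBS measured 53.1, 47.3, 58.1 and 52.0 CPM, and its log2 differences were 0.08 ± 0.151, 0.17 ± 0.151 and 0.05 ± 0.15. Psmb9 and Psmb10 differed by 0.41 ± 0.224 and 0.45 ± 0.21 with LX-A1656 and did not pass the test (adjusted p = 0.477 and 0.35). Between PBS groups 0 members changed between 24 h and 72 h (background 0.0789%) or between 24 h and 168 h (background 1.03%), with 0 and 1 at an unadjusted p under 0.05 and 0 by DESeq2 in both.

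**Figure D1:**
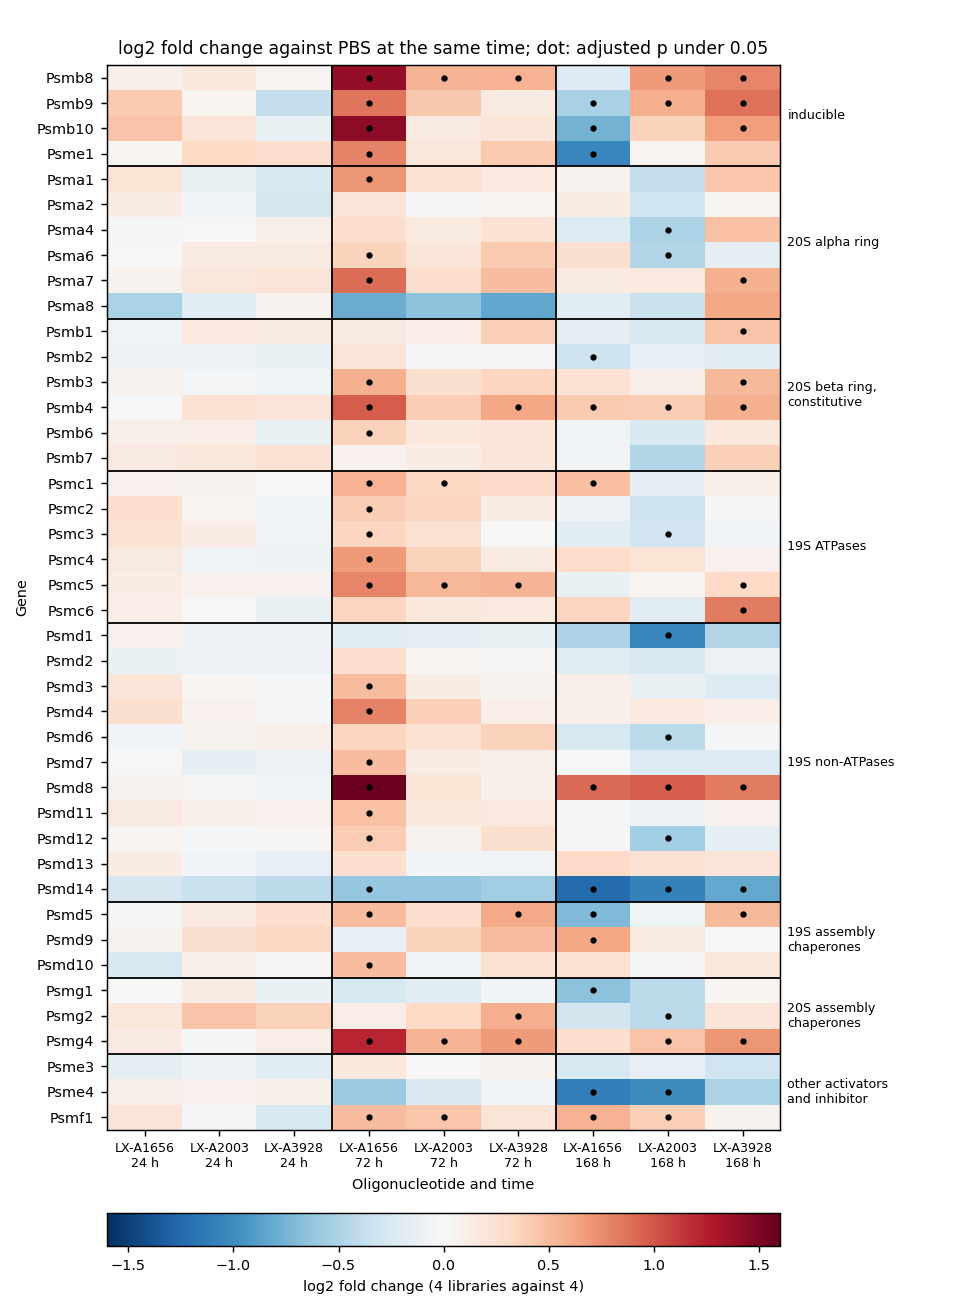
Log2 difference of each tested proteasome gene (rows, grouped by role) between each oligonucleotide and PBS at the same time (columns), as a colour scale, with dots on adjusted p under 0.05. The columns at 24 h hold no dots, LX-A1656 at 72 h holds 26 of 42, and the inducible genes have opposite colours in LX-A1656 and LX-A3928 at 168 h.

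At 72 h the subunits rose in larger number after LX-A1656 than after the other oligonucleotides. With LX-A1656, 25 of 42 members rose and 1 fell, 61.9% changed, where 48.2% of all tested genes changed, 24.7% of them higher and 23.4% lower. The median member difference was 0.40 log2 units, against 0.05 for all genes. With LX-A2003, 5 members rose and 0 fell, 11.9% against a background of 12.0% (5.48% higher, 6.55% lower), and with LX-A3928, 6 rose and 0 fell, 14.3% against 9.8% (4.47% higher, 5.33% lower). Pooled over both directions, the LX-A2003 share was near the background and the LX-A3928 share above it. All of these members rose, so the like backgrounds are 5.48% and 4.47%, and the difference from them was not tested. The count with LX-A2003 was 2 or 3 without PBS replicate 1 or 3 or LX-A2003 replicate 1, 3 or 4. The only members that rose with every oligonucleotide at 72 h were Psmb8, the ATPase Psmc5 and the assembly chaperone Psmg4, and without replicate 1 of LX-A2003 the LX-A2003 calls of Psmb8 and Psmg4 were lost.

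The inducible genes had the highest class median with LX-A1656 at 72 h, 1.13 log2 units with 4 of 4 risen, against 0.31 for the 20S core (6 of 12 risen) and 0.41 for the 19S subunits (11 of 17 risen and 1 fallen). Psmb8, the inducible subunit with chymotrypsin-like activity, measured 55.2, 45.0, 44.6 and 51.8 CPM in PBS at 72 h and 170.1, 109, 127 and 117 CPM with LX-A1656. Every LX-A1656 library lay above every PBS library, 2.66-fold on average (log2 difference 1.41 ± 0.152, adjusted p = 1.19e-10). Psmb10, the inducible counterpart of Psmb7, measured 34.3, 31.3, 30.3 and 27.4 CPM in PBS and 107, 74.8, 88.9 and 60.5 CPM with LX-A1656. These groups did not overlap either, and the rise was 2.69-fold (1.43 ± 0.21, adjusted p = 2.08e-07). Psmb9, the inducible counterpart of Psmb6, measured 15.7, 14.1, 15.0 and 8.37 CPM in PBS and 28.9, 20.0, 25.2 and 22.2 CPM with LX-A1656, a 1.81-fold rise (0.86 ± 0.219, adjusted p = 0.00108). Psme1, a subunit of the 11S activator, measured 112, 77.2, 85.4 and 113 CPM in PBS and 135, 168, 149 and 218 CPM with LX-A1656, a 1.73-fold rise (0.79 ± 0.219, adjusted p = 0.00254). For all 4 genes the LX-A1656 libraries lay wholly above those of PBS, and without replicate 1 of LX-A1656 all 4 still rose. The share of all tested genes separated in this way was not counted, so the separation is not read as particular to these genes.

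With the other oligonucleotides at 72 h, Psmb8 was the only inducible gene that rose. It measured 84.9, 66.0, 71.6 and 64.2 CPM with LX-A2003 (0.54 ± 0.151, adjusted p = 0.0103) and 67.4, 61.7, 79.7 and 81.5 CPM with LX-A3928 (0.56 ± 0.151, adjusted p = 0.00991), above all PBS libraries in both. Without replicate 1 of LX-A2003 the first of these was 0.45 with an adjusted p of 0.062, while the second kept its call without replicate 4 of LX-A3928. The log2 differences of Psmb9, Psmb10 and Psme1 were 0.43, 0.14 and 0.19 with LX-A2003 and 0.14, 0.19 and 0.42 with LX-A3928, and none passed the test.

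**Figure D2:**
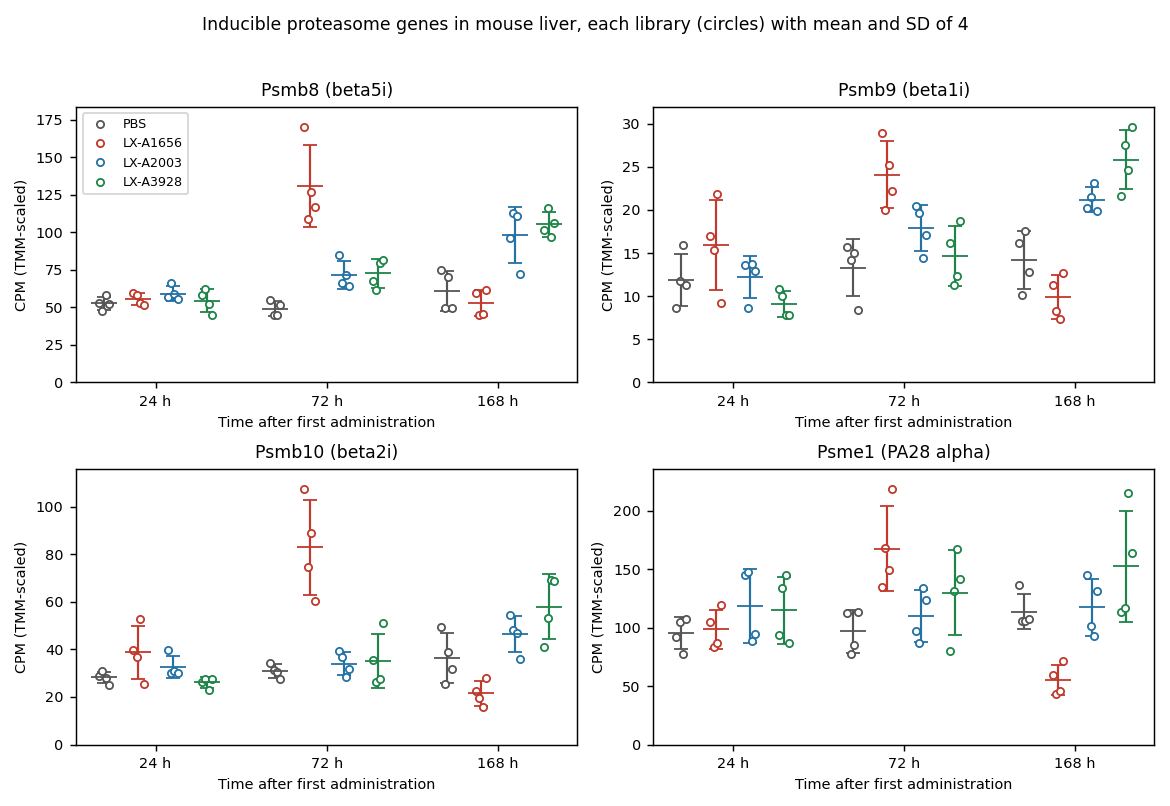
Levels of Psmb8, Psmb9, Psmb10 and Psme1 in CPM, 1 point per library and a line at the group mean, for PBS and the 3 oligonucleotides at 24 h, 72 h and 168 h. The LX-A1656 mean is the highest of the 4 groups at 72 h and the lowest at 168 h in each panel, and at 72 h single libraries of LX-A1656 overlap with LX-A2003 for Psmb9 and with LX-A3928 for Psme1.

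Among the constitutive 20S genes at 72 h, LX-A1656 was followed by rises of Psma1, Psma6, Psma7, Psmb3, Psmb4 and Psmb6. Psmb4, a structural beta subunit, measured 145, 153, 148 and 157 CPM in PBS, 374, 266, 277 and 264 CPM with LX-A1656 (1.96-fold, 0.97 ± 0.164, adjusted p = 3.01e-06) and 180.0, 199, 259 and 288 CPM with LX-A3928 (1.53-fold, 0.62 ± 0.163, adjusted p = 0.00842). Both oligonucleotide groups lay above PBS in every library, and without replicate 4 of LX-A3928 its difference was 0.49 with an adjusted p of 0.065. Psma7, an alpha ring subunit, measured 168, 147, 148 and 190.2 CPM in PBS and 428, 259.8, 255 and 272 CPM with LX-A1656 (0.90 ± 0.186, adjusted p = 8.35e-05). Of the catalytic subunits that the inducible ones replace, Psmb6 measured 121, 141, 111 and 139 CPM in PBS and 152, 171, 160.2 and 176 CPM with LX-A1656 (0.37 ± 0.145, adjusted p = 0.0339), while Psmb7 measured 347, 390.1, 388 and 383 CPM in PBS and 370.2, 412, 379 and 424 CPM with LX-A1656 and did not pass the test. Calls of the smaller rises were lost in several fits. Psmb3 was at 0.35 without replicate 1 of LX-A1656 (adjusted p = 0.206) and was also lost without PBS replicate 2, 3 or 4 (0.0544 to 0.0598). Psmb6 was lost without a filter (0.0751) and without PBS replicate 1 or 3 or LX-A1656 replicate 2 or 4 (0.0656 to 0.115). Psma6 was lost without a filter (0.0947) and without any 1 library of the 8 but LX-A1656 replicate 1 (0.0559 to 0.111).

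In the 19S particle the largest rise of any member was that of Psmd8, a lid subunit. It measured 449.6, 372, 369.9 and 359 CPM in PBS at 72 h and 1454, 986, 1134 and 1036 CPM with LX-A1656. No library of 1 group reached the other, and the rise was 2.97-fold (1.57 ± 0.133, adjusted p = 1.01e-13). With LX-A2003 and LX-A3928 the differences of Psmd8 at 72 h were 0.22 ± 0.13 and 0.08 ± 0.13 and did not pass the test. Psmd14, the deubiquitinase of the same lid, was the only member that fell with LX-A1656 at 72 h. It measured 52.2, 52.4, 48.5 and 48.8 CPM in PBS and 26.1, 35.5, 38.9 and 30.9 CPM with LX-A1656 (-0.62 ± 0.242, adjusted p = 0.0315), and without replicate 1 of LX-A1656 the difference was -0.52 with an adjusted p of 0.104. This call was also lost with library totals alone (-0.40, adjusted p = 0.175), without a filter (0.056) and without PBS replicate 1 (0.0585) or 2 (0.0592) or LX-A1656 replicate 4 (0.0678). Psmd14 also lay below all PBS libraries with LX-A2003, at 29.2, 29.8, 36.3 and 35.9 CPM, and with LX-A3928, at 34.3, 38.7, 30.6 and 33.7 CPM, but differences of -0.62 and -0.56 did not pass the test (adjusted p = 0.0923 and 0.153). Among the ATPases that unfold substrates, 5 of 6 rose with LX-A1656, with a class median of 0.47. Psmc5 was highest and measured 221, 203, 163 and 211 CPM in PBS, 407, 296, 303 and 362 CPM with LX-A1656 (0.78 ± 0.131, adjusted p = 3.05e-06), 312, 247, 312 and 279 CPM with LX-A2003 (0.53 ± 0.131, adjusted p = 0.00379) and 252, 265, 351 and 301 CPM with LX-A3928 (0.55 ± 0.131, adjusted p = 0.00314). All 12 libraries of the oligonucleotides lay above all 4 of PBS. Psmc3, also an ATPase, rose by 0.34 log2 units with LX-A1656, a call lost without a filter (adjusted p = 0.0805) and without PBS replicate 1, 3 or 4 or LX-A1656 replicate 2 or 3 (0.055 to 0.0758), and Psmc6 did not pass the test at 72 h. Psmd3, a lid subunit, was at 0.32 without replicate 1 of LX-A1656 and lost its call (adjusted p = 0.137), as it did without PBS replicate 4 (0.0506). Psmd4, a ubiquitin receptor, rose by 0.79 log2 units with LX-A1656 (SE 0.152, adjusted p = 2.35e-05).

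Assembly factors rose as well at 72 h. Psmg4, a chaperone that helps to build the alpha ring, measured 17.3, 18.6, 14.7 and 19.7 CPM in PBS and 48.0, 32.0, 39.7 and 44.6 CPM with LX-A1656 (1.22 ± 0.168, adjusted p = 4.36e-08). It measured 27.3, 22.9, 25.4 and 27.0 CPM with LX-A2003 (0.54 ± 0.168, adjusted p = 0.0233) and 21.9, 24.0, 31.2 and 35.6 CPM with LX-A3928 (0.68 ± 0.168, adjusted p = 0.0045). Its level lay above PBS in every oligonucleotide library, although the LX-A2003 call was lost without replicate 1 of that group (0.52, adjusted p = 0.0609), without its replicate 4 (0.0602), without PBS replicate 1 (0.0546) or 3 (0.101) and without a filter (0.0523). Psmd5, a chaperone of the 19S base, rose with LX-A1656 (0.49 ± 0.185, adjusted p = 0.0256) and LX-A3928 (0.61 ± 0.185, adjusted p = 0.0254). The first call was lost without replicate 1 of LX-A1656 (0.42, adjusted p = 0.0831) and without PBS replicate 2 (0.0505) or 3 (0.0602), and the second without replicate 4 (0.51, adjusted p = 0.109) or 3 (0.0819) of LX-A3928 and without PBS replicate 2 (0.0639) or 3 (0.0735). Psmf1, an inhibitor of the 20S core, rose with LX-A1656 (0.49 ± 0.143, adjusted p = 0.00364) and LX-A2003 (0.45 ± 0.143, adjusted p = 0.0292). The LX-A2003 call of Psmf1 was lost without its replicate 1 (0.37, adjusted p = 0.126) or 3 (0.0543), without PBS replicate 2, 3 or 4 (0.0574 to 0.158) and without a filter (0.072). Psme4, an activator that works without ubiquitin, measured 78.4, 104.7, 95.2 and 113 CPM in PBS and 33.4, 73.3, 84.1 and 69.9 CPM with LX-A1656 and did not pass the test. Without the library that stood apart, 23 members rose and 0 fell with LX-A1656, 2 rose with LX-A2003 and 4 rose with LX-A3928.

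**Figure D3:**
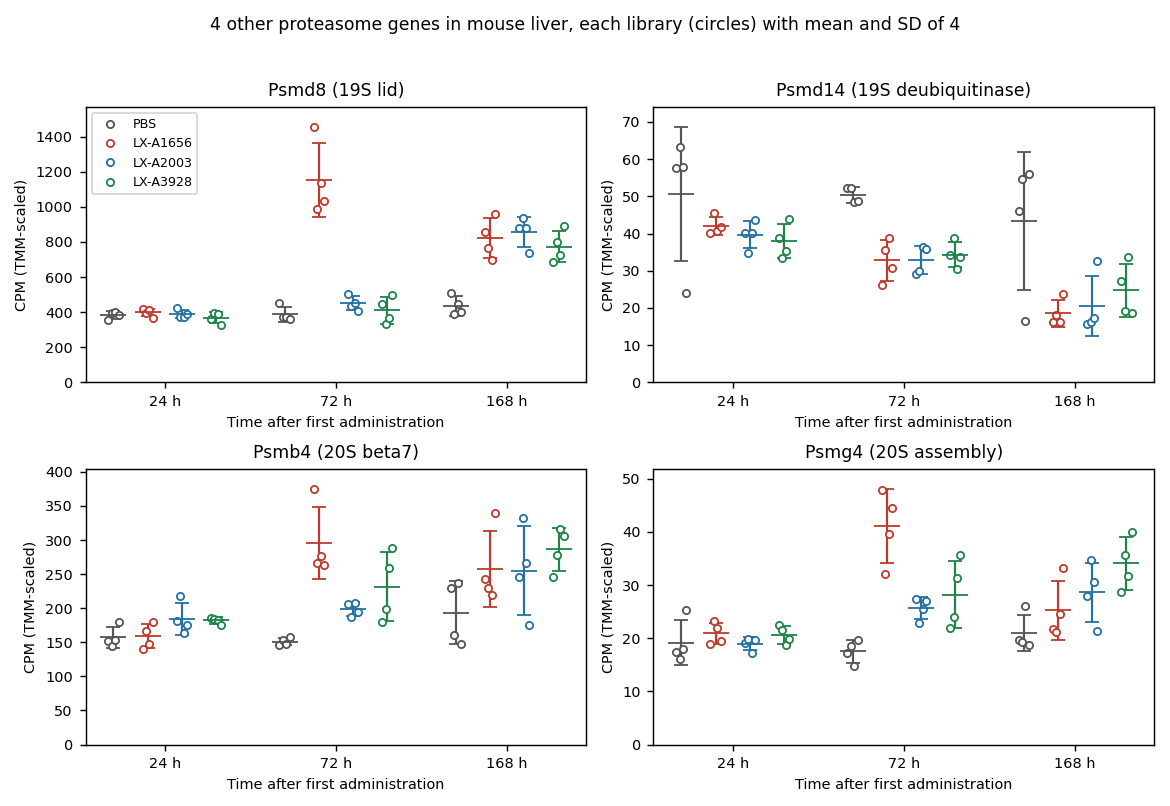
Levels of Psmd8, Psmd14, Psmb4 and Psmg4 in CPM, 1 point per library and a line at the group mean, for PBS and the 3 oligonucleotides at 24 h, 72 h and 168 h. Psmd8 is raised by LX-A1656 alone at 72 h and by all 3 oligonucleotides at 168 h. At 168 h the Psmd14 mean of each oligonucleotide group lies below that of PBS, but a low PBS replicate 3 makes the ranges overlap.

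At 168 h members changed in both directions. With LX-A1656, 5 rose and 8 fell, 31.0% of 42 against 63.9% of all tested genes (34.1% higher, 29.7% lower). With LX-A2003, 6 rose and 9 fell, 35.7% against 55.1% (29.8% higher, 25.3% lower), and with LX-A3928, 12 rose and 1 fell, 31.0% against 48.0% (27.3% higher, 20.7% lower). Psmd8 and Psmb4 rose and Psmd14 fell with all 3 oligonucleotides. The call of Psmb4 was lost in several fits. For LX-A1656 it was lost with only the compared libraries (adjusted p = 0.0951), without PBS replicate 2 (0.0984) or 4 (0.127) and without LX-A1656 replicate 4 (0.25, adjusted p = 0.191). For LX-A2003 it was lost without a filter (0.0603), with only the compared libraries (0.123) and without PBS replicate 2 or 4 or LX-A2003 replicate 2 or 3 (0.0706 to 0.226), and for LX-A3928 with only the compared libraries (0.0609). The median member difference was -0.06, -0.14 and 0.14 log2 units, where all genes had 0.10, 0.04 and 0.08. The result with LX-A3928 rested in part on its replicate 3: without it 7 members rose and 7 fell and the median was -0.06. Psmb3, Psmc5 and Psmd5 were then at 0.19, 0.26 and 0.19 and lost their calls (adjusted p = 0.462, 0.111 and 0.361). Without replicate 4 of LX-A1656, 13 members changed with it, and without replicate 4 of LX-A2003, 16 changed with that oligonucleotide. Without PBS replicate 2, 8 members changed with LX-A2003 and 8 with LX-A3928, and without PBS replicate 4, 8 changed with LX-A3928.

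The inducible genes lay on opposite sides of PBS at 168 h. Their class median was -0.64 with LX-A1656 (0 risen and 3 fallen of 4), 0.47 with LX-A2003 (2 risen) and 0.73 with LX-A3928 (3 risen). For the 20S core the medians were -0.00225, -0.28 and 0.45, and for the 19S subunits -0.02, -0.18 and 0.02. Without replicate 3 of LX-A3928 its medians were 0.70 for the inducible genes (3 risen), -0.13 for the 20S core (2 risen and 3 fallen of 12) and -0.08 for the 19S subunits (1 risen and 3 fallen of 17). Psme1 measured 136, 105.5, 106 and 107 CPM in PBS and 59.4, 43.6, 45.7 and 71.9 CPM with LX-A1656, all below PBS, and fell to 0.485 of the PBS level (-1.04 ± 0.221, adjusted p = 6.72e-05). Psmb10 measured 49.5, 25.2, 39.0 and 31.7 CPM in PBS and 22.7, 19.4, 15.7 and 28.1 CPM with LX-A1656 (-0.76 ± 0.21, adjusted p = 0.00161), with 1 LX-A1656 library above the lowest of PBS. Psmb9 measured 16.2, 10.1, 17.5 and 12.8 CPM in PBS and 11.3, 8.30, 7.30 and 12.7 CPM with LX-A1656 (-0.52 ± 0.223, adjusted p = 0.039). These groups overlapped, and the call of Psmb9 was lost with RLE scaling (adjusted p = 0.0542), without a filter (0.0535), with only the compared libraries (0.0688) and without PBS replicate 1 (0.103) or 3 (0.137) or LX-A1656 replicate 2 (0.108) or 3 (0.144). Psmb8 measured 75.0, 49.6, 70.3 and 49.6 CPM in PBS and 59.3, 44.6, 45.8 and 61.4 CPM with LX-A1656 and did not pass the test.

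Scaling mattered for the falls after LX-A1656. When libraries were scaled by their totals alone, the median of all genes moved to 0.56, 0.45 and 0.39 log2 units at 168 h for LX-A1656, LX-A2003 and LX-A3928 and to 0.27 for LX-A1656 at 72 h, and the members split 23 risen and 2 fallen, 20 and 2, and 25 and 0 at 168 h and 31 and 0 with LX-A1656 at 72 h. With that scaling the inducible median with LX-A1656 at 168 h was -0.17, and only Psme1 fell (-0.58, adjusted p = 0.0104), while Psmb8, Psmb9 and Psmb10 were at 0.27, -0.05 and -0.29 and did not pass the test. The falls of these genes are thus relative to the other genes of the same libraries.

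Psmb8 and Psmb9 were higher with the other oligonucleotides at 168 h. Psmb8 measured 96.6, 113, 111 and 72.2 CPM with LX-A2003 (1.6-fold, 0.68 ± 0.15, adjusted p = 0.000159) and 102, 116.5, 96.8 and 106 CPM with LX-A3928 (1.73-fold, 0.79 ± 0.15, adjusted p = 2.66e-05). The LX-A3928 libraries lay above all of PBS, and 1 LX-A2003 library overlapped with PBS. Psmb9 measured 20.2, 21.5, 23.1 and 19.9 CPM with LX-A2003 (0.58 ± 0.219, adjusted p = 0.0223) and 21.7, 27.5, 24.6 and 29.6 CPM with LX-A3928 (0.87 ± 0.219, adjusted p = 0.000956), above all PBS libraries in both. The LX-A2003 call of Psmb9 was lost without PBS replicate 2 (adjusted p = 0.107) or 4 (0.0585) or LX-A2003 replicate 3 (0.0544). Psmb10 measured 54.5, 48.1, 47.0 and 36.0 CPM with LX-A2003 and did not pass the test (0.35 ± 0.208), and it measured 41.0, 53.1, 69.4 and 68.6 CPM with LX-A3928 and rose (0.67 ± 0.208, adjusted p = 0.00656), a call lost with only the compared libraries (0.061). Psme1 measured 145, 101, 93.0 and 131 CPM with LX-A2003 and 114, 117, 215 and 164 CPM with LX-A3928, overlapped with PBS in both and did not pass the test. Without replicate 3 of LX-A3928, Psmb8, Psmb9 and Psmb10 still rose, by 0.83, 0.89 and 0.58.

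**Figure D4:**
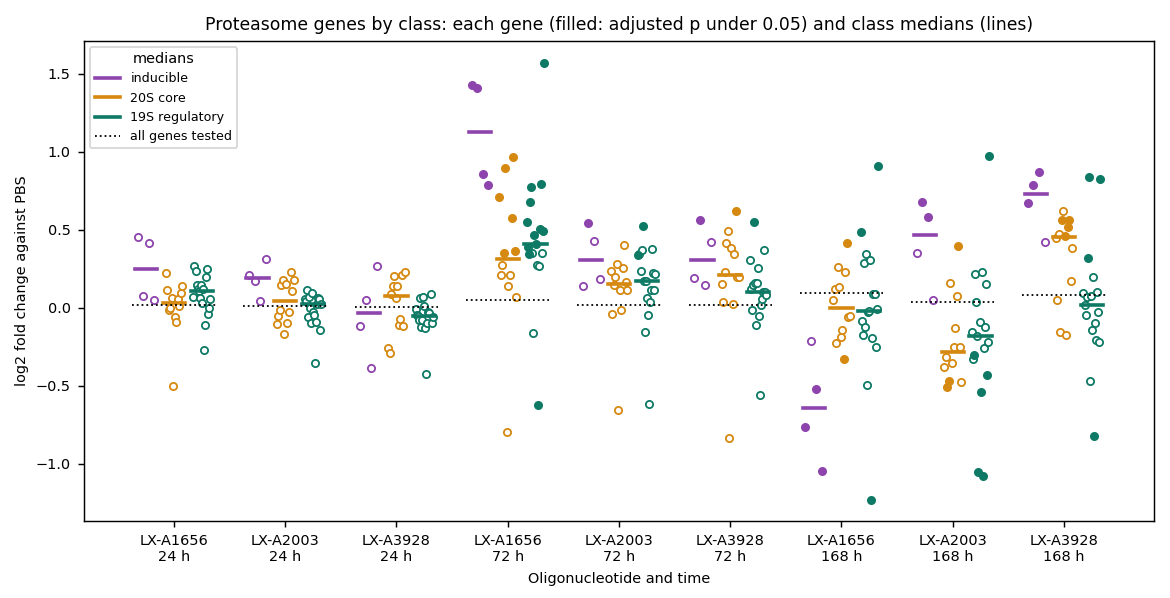
Median log2 difference from PBS of the inducible, 20S core and 19S genes for each oligonucleotide at each time, with the median of all tested genes beside them. The inducible median of LX-A1656 is 1.13 at 72 h and -0.64 at 168 h, while that of LX-A3928 is 0.31 and 0.73.

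Within a library, the ratio of 2 amplicon counts does not depend on scaling, and it can be compared between groups but not read as a ratio of molecules. The ratio of Psmb10 to Psmb7 counts averaged 0.0822 in PBS at 72 h (0.0715 to 0.0991 over the 4 libraries) and 0.212 with LX-A1656 (0.143 to 0.29), with no overlap. The ratio of Psmb8 to Psmb6 counts averaged 0.388 in PBS (0.319 to 0.455) and 0.803 with LX-A1656 (0.637 to 1.12) at 72 h. Psmb6 is not the subunit that Psmb8 replaces, which is Psmb5 and was not analysed here. Against Psmb4, a structural subunit, the ratio of Psmb8 counts averaged 0.326 in PBS (0.293 to 0.38) and 0.442 with LX-A1656 (0.411 to 0.458) at 72 h. The ratio of Psmb9 to Psmb6 counts averaged 0.107 in PBS (0.0603 to 0.136) and 0.148 with LX-A1656 (0.117 to 0.191) at 72 h, ranges that overlapped. At 168 h the ratio of Psmb9 to Psmb6 counts averaged 0.117 in PBS (0.0824 to 0.18), 0.0809 with LX-A1656 (0.0657 to 0.0986), 0.202 with LX-A2003 (0.165 to 0.232) and 0.197 with LX-A3928 (0.116 to 0.275). In each oligonucleotide group at 168 h this range overlapped with that of PBS, and the ranges of LX-A1656 and LX-A2003 or LX-A3928 did not overlap. For Psmb8 to Psmb6 the ranges at 168 h were 0.339 to 0.721 in PBS, 0.353 to 0.476 with LX-A1656, 0.598 to 1.21 with LX-A2003 and 0.457 to 1.16 with LX-A3928, so that LX-A1656 overlapped with LX-A3928. For Psmb10 to Psmb7 they were 0.066 to 0.126, 0.044 to 0.0785, 0.111 to 0.264 and 0.0663 to 0.26 in the same order, and LX-A1656 overlapped with PBS and LX-A3928. For Psmb8 to Psmb4 they were 0.296 to 0.338, 0.181 to 0.244, 0.339 to 0.415 and 0.306 to 0.42. In this last ratio LX-A1656 lay below PBS, and LX-A3928 overlapped with PBS. Psmb4 itself rose with LX-A1656 at 72 h and with all 3 oligonucleotides at 168 h, so its ratios also carry changes of the denominator. Psmb8 did not pass the test with LX-A1656 at 168 h, and the lower ratio is not read as its fall.

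Psmd8 and Psmd14, subunits of the 19S lid, moved apart at 168 h. Psmd8 measured 511, 389, 446.5 and 399 CPM in PBS and 859, 767, 699.8 and 959 CPM with LX-A1656 (0.91 ± 0.131, adjusted p = 5.97e-08). It measured 879, 935, 881 and 735 CPM with LX-A2003 (0.97 ± 0.131, adjusted p = 2.3e-08) and 684.5, 799.8, 724 and 889 CPM with LX-A3928 (0.83 ± 0.131, adjusted p = 9.69e-07). All 12 oligonucleotide libraries exceeded every PBS library. Psmd14 measured 46.1, 54.8, 16.6 and 56.1 CPM in PBS, 16.1, 18.1, 16.2 and 23.7 CPM with LX-A1656 (-1.23 ± 0.247, adjusted p = 3.1e-05) and 15.7, 16.4, 17.4 and 32.5 CPM with LX-A2003 (-1.08 ± 0.246, adjusted p = 0.000244). It measured 27.2, 19.1, 33.7 and 18.7 CPM with LX-A3928 (-0.82 ± 0.245, adjusted p = 0.00502). Replicate 3 of PBS was low and produced the overlap with all 3 groups, and the LX-A3928 call was lost when libraries were scaled by their totals (-0.55, adjusted p = 0.0595) and with only the compared libraries (0.123). The ratio of Psmd8 to Psmd14 counts averaged 13.1 in PBS (7.11 to 27.0) and 44.8 (40.4 to 53.4), 46.6 (22.6 to 57.2) and 34.0 (21.5 to 47.5) in the groups of the 3 oligonucleotides, in the same order. Only the LX-A1656 range lay clear of PBS. Psmd8 and Psmd14 were picked as the called 19S non-ATPases with the highest and lowest fold change against PBS. A higher ratio follows from that choice and is not separate evidence. Psmd1, a scaffold subunit of the 19S base, measured 118, 144, 84.4 and 159.7 CPM in PBS and 49.4, 38.9, 51.5 and 104.8 CPM with LX-A2003 (-1.05 ± 0.244, adjusted p = 0.000318).

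Among the remaining members at 168 h, Psme4 measured 69.1, 102.5, 65.7 and 98.8 CPM in PBS and 33.9, 48.8, 44.7 and 29.7 CPM with LX-A1656, below all of PBS (-1.09 ± 0.303, adjusted p = 0.00169). With LX-A2003 it measured 25.1, 25.7, 41.0 and 75.8 CPM (-1.001 ± 0.303, adjusted p = 0.00476), and with LX-A3928 78.8, 26.2, 108 and 24.8 CPM, a spread within which no change was called. Both falls of Psme4 were lost with library totals alone (-0.63, adjusted p = 0.068, and -0.57, adjusted p = 0.106). Psmd5 measured 89.0, 56.5, 68.8 and 55.6 CPM in PBS and 37.2, 38.6, 36.9 and 53.3 CPM with LX-A1656, below all of PBS (-0.70 ± 0.186, adjusted p = 0.00107), a call lost with library totals alone (0.171). Psmd9, another 19S chaperone, rose with LX-A1656 (0.62 ± 0.176, adjusted p = 0.00216) from 57.4, 47.1, 65.8 and 39.7 CPM to 64.8, 78.2, 77.4 and 102 CPM. Psmf1 measured 104.8, 83.4, 98.1 and 92.6 CPM in PBS and 127, 129, 129.9 and 169 CPM with LX-A1656, above all of PBS (0.55 ± 0.142, adjusted p = 0.000819). Psmg1, a chaperone of 20S assembly, was low throughout and fell with LX-A1656 (-0.66 ± 0.238, adjusted p = 0.0143), at 3.41, 6.21, 6.25 and 5.31 CPM against 10.4, 7.14, 5.52 and 10.5 CPM. Its call was lost with library totals alone (-0.19, adjusted p = 0.492) and without PBS replicate 1 or 4 or LX-A1656 replicate 1 (0.0633 to 0.0751). Psmg4 rose with LX-A2003 (0.45 ± 0.166, adjusted p = 0.0193) and LX-A3928 (0.70 ± 0.166, adjusted p = 0.000475), the former lost with only the compared libraries (0.055) and without PBS replicate 2 or 4 or LX-A2003 replicate 2 (0.0545 to 0.0946). Of the constitutive catalytic subunits, Psmb6 did not pass the test with any oligonucleotide at 168 h. Psmb7 measured 391.6, 382.5, 347 and 368 CPM in PBS and 207, 241, 299 and 325 CPM with LX-A2003, below all of PBS, but its difference of -0.47 did not pass the test (adjusted p = 0.0634). In the 20S core, Psmb2 fell with LX-A1656 (-0.33 ± 0.143, adjusted p = 0.0424), and Psma4 (-0.51 ± 0.214, adjusted p = 0.0417) fell with LX-A2003. Psmc3 also fell with LX-A2003 (-0.30 ± 0.13, adjusted p = 0.0436), and Psma7 rose with LX-A3928 (0.57 ± 0.185, adjusted p = 0.0102). That of Psmb2 was lost with RLE scaling (adjusted p = 0.0737), with DESeq2 (0.0666), without a filter (0.0984), with only the compared libraries (0.0716) and without PBS replicate 1 or 3 or LX-A1656 replicate 1, 2 or 3 (0.0765 to 0.143), and its sign turned with library totals alone (0.14). That of Psma4 was lost with RLE scaling (0.0542), library totals alone (0.705), no filter (0.0546), DESeq2 (0.051) and without PBS replicate 1 or 2 or LX-A2003 replicate 1, 2 or 3 (0.0563 to 0.204). That of Psmc3 was lost with RLE scaling (0.0588), no filter (0.121), the replicate block (0.052), only the compared libraries (0.133) and without PBS replicate 2 or 4 or LX-A2003 replicate 2, 3 or 4 (0.052 to 0.178), and its sign turned with library totals alone (0.11). That of Psma7 was lost with only the compared libraries (0.0957) and without PBS replicate 2 or 4 or LX-A3928 replicate 4 (0.0509 to 0.0657).

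Replicate 3 of LX-A3928 at 168 h lay above the other 3 libraries of its group for 27 of 43 members, below them for 8 and among them for 8. The share of all tested genes that lay outside the other libraries was not counted. The count is therefore not read as particular to the members. Psmc6 measured 401 CPM in replicate 3 and 69.0 to 76.5 CPM in the others, 5.77 times their median, Psme4 was at 4.11, Psmb7 at 3.97 and Psma1 at 3.27 times. The lowest were Psmd4 at 0.528 and Psmd3 at 0.58 times. The inducible genes were at 0.909 (Psmb8), 0.893 (Psmb9), 1.31 (Psmb10) and 1.84 (Psme1) times. In that library the summed level of 8 hepatocyte markers was 78910 CPM, against at most 34480 CPM in the others. Its sums of neutrophil (42.1 CPM, others at most 10.7), stellate cell (1413, others at most 738) and macrophage markers (811, others at most 622.5) were also the highest. So was its sum of B cell markers (2.80 CPM, others at most 1.36). The sum of the leukocyte markers, 154.7 CPM, lay among the others. Those of T and NK cells and of cholangiocytes were the lowest of the group in replicate 3. The rises of Psmc6 (0.84 ± 0.352, adjusted p = 0.0471) and Psmb1 with LX-A3928 turned to -0.26 and -0.075 without it, and both calls were also lost without a filter (adjusted p = 0.105 and 0.0602), with the replicate block (0.0875 and 0.0698), with only the compared libraries (0.289 and 0.328) and without PBS replicate 2, 3 or 4 (0.0754 to 0.173 for Psmc6, 0.067 to 0.114 for Psmb1). Without replicate 3, Psme4, Psmd1, Psma2, Psma6, Psmd6, Psmb7 and Psmd14 were the members that fell.

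**Figure D5:**
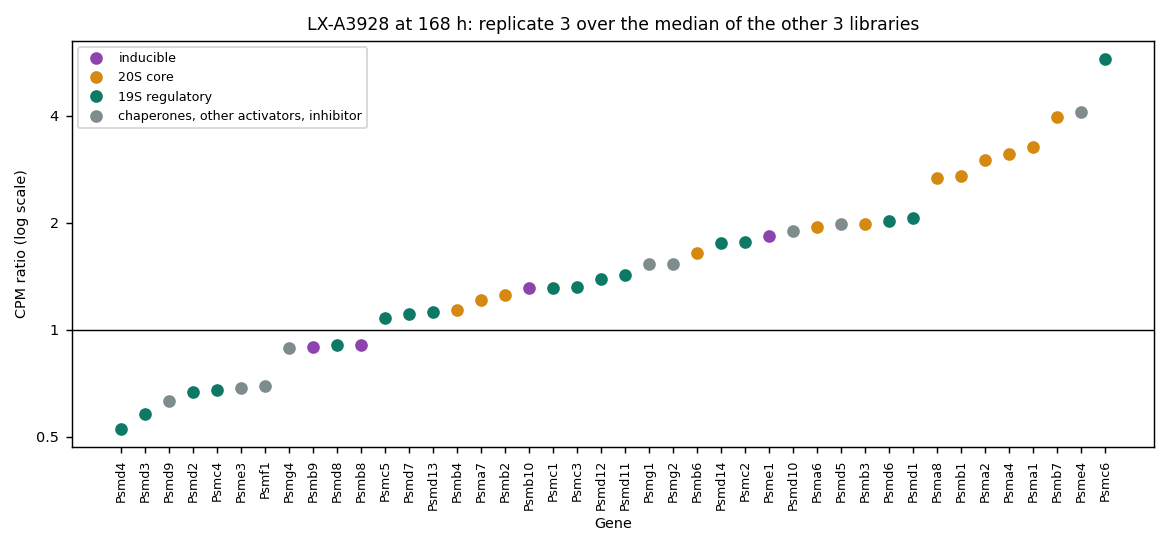
Level of each member in replicate 3 of LX-A3928 at 168 h divided by the median of the other 3 libraries of that group, on a log axis, by role. Most constitutive genes lie above 1, with Psmc6 at 5.77, while Psmb8 and Psmb9 lie just below 1.

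The oligonucleotides were also compared with each other in 9 pairs, with the p-values of each pair adjusted over all tested genes. At 24 h 1 member differed: Psmb9 was lower with LX-A3928 than with LX-A1656 (-0.80 ± 0.225, adjusted p = 0.0382), where 2.9% of all genes differed (1.5% higher and 1.4% lower), and 0 members differed in the other pairs (backgrounds 0.284% and 0.15%), with 0 in both at an unadjusted p under 0.05 and by DESeq2. The single difference at 24 h was lost without any 1 of replicates 1, 2 and 3 of LX-A1656 or 2, 3 and 4 of LX-A3928. At 72 h LX-A2003 had 1 member higher and 12 lower than LX-A1656 (18.0% and 18.0% of all genes, 35.9% in all), and LX-A3928 had 2 higher and 11 lower (20.4% and 20.1%, 40.6% in all). Psmd8 differed most, by -1.35 ± 0.132 and -1.49 ± 0.132 log2 units. For Psmb8 the differences were -0.87 (95% interval -1.17 to -0.564, adjusted p = 7.91e-06) and -0.85 (-1.15 to -0.545, adjusted p = 9.27e-06). For Psmb10 they were -1.28 (-1.71 to -0.86, adjusted p = 2.7e-06) and -1.24 (-1.66 to -0.813, adjusted p = 4.38e-06). Psmb9 was lower with LX-A3928 (-0.71, -1.15 to -0.274, adjusted p = 0.00685) and Psme1 with LX-A2003 (-0.60, -1.04 to -0.16, adjusted p = 0.0264), a call lost without replicate 1 of LX-A2003 (-0.54, adjusted p = 0.0753). LX-A3928 and LX-A2003 had 0 members called different at 72 h (background 0.718%), with 0 at an unadjusted p under 0.05 and 0 by DESeq2, and the intervals of their difference were -0.284 to 0.321 for Psmb8, -0.726 to 0.158 for Psmb9, -0.373 to 0.471 for Psmb10 and -0.207 to 0.678 for Psme1, which are the differences these libraries allow.

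At 168 h the order was the other way round for the inducible genes, and all 4 were higher with LX-A2003 and with LX-A3928 than with LX-A1656. In all, LX-A2003 had 5 members higher and 4 lower than LX-A1656 (18.3% and 13.8% of all genes, 32.1% in all), and LX-A3928 had 11 higher and 4 lower (23.2% and 18.5%, 41.7% in all). Psmb8 was higher by 0.89 (95% interval 0.589 to 1.2, adjusted p = 7.79e-06) with LX-A2003 and by 1.00 (0.695 to 1.3, adjusted p = 5.66e-07) with LX-A3928. Psmb9 was higher by 1.10 (0.657 to 1.55, adjusted p = 0.000105) and 1.39 (0.947 to 1.84, adjusted p = 1.39e-06). Psmb10 was higher by 1.11 (0.69 to 1.54, adjusted p = 4.73e-05) and 1.44 (1.01 to 1.86, adjusted p = 3.44e-07). Psme1 was higher by 1.09 (0.645 to 1.54, adjusted p = 0.000133) and 1.47 (1.01 to 1.92, adjusted p = 6.81e-07). All 4 genes stayed higher in both pairs when libraries were scaled by totals alone, and higher with LX-A3928 without its replicate 3. Psmd5 was also higher with LX-A2003 (0.63 ± 0.185, adjusted p = 0.00729) and LX-A3928 (1.23 ± 0.186, adjusted p = 7.06e-07), while Psmd8 and Psmd14 did not pass the test in any pair at 168 h. Between LX-A3928 and LX-A2003, 6 members were higher with LX-A3928 and 0 lower (5.33% and 2.77%, 8.1% in all), none of them inducible, and this count was 0 without replicate 3 of LX-A3928, 2 without replicate 1 of LX-A2003, and 13 and 11 without replicates 2 and 4 of LX-A3928. The intervals of that difference were -0.194 to 0.406 for Psmb8, -0.142 to 0.722 for Psmb9, -0.0948 to 0.737 for Psmb10 and -0.0697 to 0.815 for Psme1.

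The change of the effect against PBS between 24 h and 168 h was tested as an interaction. With LX-A1656 it was positive for 2 members and negative for 6 (23.2% and 23.8% of all genes, 47.0% in all), the latter including Psme1 (-1.09), Psmb10 (-1.22) and Psmb9 (-0.93). With LX-A2003 it was positive for 1 and negative for 5 (20.0% and 18.5%, 38.5% in all). With LX-A3928 it was positive for 5 and negative for 0 (17.4% and 15.0%, 32.4% in all), the 5 being Psmb8 (0.74), Psmb9 (1.25), Psmb10 (0.79), Psmd8 (0.88) and Psmg4 (0.59). These directions depended on scaling. With library totals alone, 14 were positive and 1 negative with LX-A1656, 11 and 0 with LX-A2003, and 19 and 0 with LX-A3928. Without replicate 3 of LX-A3928 at 168 h, 4 were positive and 4 negative with that oligonucleotide.

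Genes that share pathways with the proteasome were read from other lists, whose counts stand against the shares of all tested genes that rose and fell. At 72 h these were 24.7% and 23.4% with LX-A1656, 5.48% and 6.55% with LX-A2003 and 4.47% and 5.33% with LX-A3928. At 168 h they were 34.1% and 29.7%, 29.8% and 25.3%, and 27.3% and 20.7%, and nothing is called particular to a list from its count. Class I antigen presentation genes, which load peptides cut by the proteasome, had 6 of 11 tested genes risen with LX-A1656 at 72 h, 0 with LX-A2003 and 2 with LX-A3928. Examples with LX-A1656 were the peptide transporter Tap1 (1.63 ± 0.244) and the heavy chains H2-K1 (1.24 ± 0.171) and H2-D1 (1.10 ± 0.158). At 168 h, when Psmb9, Psmb10 and Psme1 fell with LX-A1656, 2 of these genes rose and 3 fell with it, with H2-D1 at 1.16 ± 0.158 but Calr, a chaperone of class I loading, at -1.18 ± 0.212 and Erap1, which trims peptides, at -1.12 ± 0.248. With LX-A2003, 6 rose and 3 fell, and with LX-A3928, 7 rose and 1 fell, with Tap1 at 0.88 ± 0.24 and 0.89 ± 0.24.

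Interferon signalling genes had 13 of 16 tested genes risen and 1 fallen with LX-A1656 at 72 h, 8 risen with LX-A2003 and 6 with LX-A3928, with 0 fallen in both. Irf7, a transcription factor of the interferon response, rose by 2.81 ± 0.165, 1.02 ± 0.159 and 0.89 ± 0.159. At 168 h 10 rose and 1 fell with LX-A1656, 13 and 1 with LX-A2003 and 13 and 1 with LX-A3928, and Irf7 rose by 1.92 ± 0.16, 2.20 ± 0.161 and 2.29 ± 0.162. With LX-A1656 at 168 h the median of the interferon list was 1.03, where that of the inducible proteasome genes was -0.64.

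NRF2 targets, which respond to oxidative stress, had 9 of 12 risen and 1 fallen with LX-A1656 at 72 h, and 5 and 2 risen with LX-A2003 and LX-A3928. At 168 h the counts were 5 risen and 2 fallen, 7 and 0, and 8 and 1. Srxn1, which repairs oxidised peroxiredoxins, rose by 3.84 ± 0.188 with LX-A1656 at 72 h and by 3.03 ± 0.183, 3.08 ± 0.183 and 2.95 ± 0.183 at 168 h. Heat shock genes had 7 of 8 risen with LX-A1656 at 72 h and 2 with each other oligonucleotide, and 3, 5 and 4 risen at 168 h with 2 fallen for LX-A1656 only. The chaperone gene Hsp90ab1 rose by 1.18 ± 0.144 with LX-A1656 at 72 h.

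Proteasome partners outside the naming rule had 5 of 14 risen and 3 fallen with LX-A1656 at 72 h, and 2 risen and 4 fallen at 168 h. Zfand2a, a zinc finger protein that binds the 19S particle under stress, rose by 2.13 ± 0.188 with LX-A1656 at 72 h and by 3.67 ± 0.199, 2.59 ± 0.192 and 1.52 ± 0.189 at 168 h with the 3 oligonucleotides in the same order as above. Ube3c, a ubiquitin ligase bound to the proteasome, fell by 1.89 on the log2 scale with LX-A1656 at 72 h and by 1.67, 0.59 and 0.74 with the 3 oligonucleotides at 168 h. In the list around NFE2L1, the transcription factor that drives proteasome genes when proteasome activity is low, 1 of 11 rose and 3 fell with LX-A1656 at 72 h. At 168 h 6, 4 and 4 fell and 0, 0 and 1 rose. Nfe2l1 itself fell with LX-A1656 and LX-A3928 (-0.66 ± 0.156 and -0.66 ± 0.157), and Ngly1, the enzyme that activates it, fell with LX-A1656 (-1.03 ± 0.199). Of the ubiquitin and E1 list, 2 genes were tested, and Uba6, an E1 enzyme, fell with LX-A1656 at 72 h (-1.002 ± 0.358) and 168 h (-1.69 ± 0.38).

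Levels of markers of other cell types differed as well, some already at 24 h, when no member changed. In bulk liver fewer cells of a type and less RNA per cell cannot be told apart. The summed level of 5 leukocyte markers ranged from 36.7 to 46.6 CPM in PBS at 72 h and from 83.6 to 127 CPM with LX-A1656, where 4 of 5 rose, while LX-A2003 (44.6 to 57.0 CPM) and LX-A3928 (48.1 to 62.4 CPM) had 0 risen. At 168 h it ranged from 43.5 to 59.6 CPM in PBS, from 242 to 397 CPM with LX-A1656, from 222 to 320.5 CPM with LX-A2003 and from 154 to 189 CPM with LX-A3928, with 5, 5 and 4 of 5 risen. Of 8 macrophage and monocyte markers, 4 rose and 2 fell with LX-A1656 at 72 h, and 7 rose with each oligonucleotide at 168 h, when the sum was 242 to 298 CPM in PBS, 1026 to 1532 CPM with LX-A1656, 787 to 1052 CPM with LX-A2003 and 579.9 to 811 CPM with LX-A3928. Of 4 dendritic cell markers 3 were tested, of which 2 rose with LX-A1656 at 72 h and 3 with each oligonucleotide at 168 h, when the sum of the 4 was 0.621 to 1.02 CPM in PBS and 6.28 to 11.2, 15.6 to 18.4 and 12.5 to 13.8 CPM. The sum of 9 T and NK cell markers was 3.65 to 6.30 CPM in PBS and 7.495 to 9.30 CPM with LX-A1656 at 72 h, where 2 of the 5 tested rose. At 168 h it was 3.00 to 4.44 CPM in PBS and 5.71 to 11.0, 7.71 to 10.1 and 7.91 to 10.0 CPM with the 3 oligonucleotides, with 3, 4 and 3 of 5 risen, and Klrb1c was at 0 in all groups of both times but LX-A1656 at 168 h. The sum of 3 B cell markers at 72 h was 0.9625 to 1.77 CPM in PBS and 0.636 to 1.10 CPM with LX-A1656. At 168 h that sum was 1.35 to 2.92 CPM in PBS and 0.716 to 1.56, 0.269 to 0.892 and 0.834 to 2.80 CPM. Only LX-A2003 lay clear of PBS, below it. Of 4 neutrophil markers 3 were tested and rose with LX-A1656 at 72 h, when their sum was 3.49 to 4.99 CPM in PBS and 14.4 to 18.9 CPM with LX-A1656, and 3, 1 and 3 rose with the 3 oligonucleotides at 168 h. Of 4 markers of sinusoidal endothelium, 2 fell with each oligonucleotide at 72 h, from a sum of 122.0 to 139 CPM in PBS to 31.4 to 45.0 CPM, 55.8 to 59.2 CPM and 52.6 to 59.8 CPM. At 24 h the sum was 128 to 142 CPM in PBS and 42.2 to 58.4, 76.3 to 91.5 and 78.25 to 86.6 CPM. At 168 h it was 101 to 130 CPM in PBS and 100 to 118, 73.7 to 93.4 and 77.6 to 97.2 CPM. The sum of 4 cholangiocyte (bile duct cell) markers at 24 h was 23.5 to 25.85 CPM in PBS and 16.2 to 23.7, 11.9 to 17.1 and 8.77 to 10.9 CPM. At 72 h the PBS sum was itself lower, 12.8 to 18.6 CPM, beside 15.6 to 28.4, 12.0 to 14.0 and 8.19 to 9.67 CPM. At 168 h the sum was 14.2 to 24.8 CPM in PBS and 14.0 to 22.55, 15.25 to 22.4 and 10.8 to 19.6 CPM, all overlapping with PBS. Of 4 stellate cell markers, 4, 3 and 4 rose at 168 h, from a sum of 252.9 to 330.0 CPM in PBS to 1173 to 1595 CPM, 559.6 to 858 CPM and 477 to 1413 CPM. Hepatocyte markers fell for 6 of 8 with LX-A1656 at 72 h (sum 34900 to 48660 CPM, PBS 54500 to 61720 CPM) and for 5 of 8 with each oligonucleotide at 168 h (28440 to 43950, 25690 to 31980 and 24060 to 78910 CPM, PBS 53300 to 71050 CPM). The part of these cell types in the proteasome results was not tested.

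The length of the gene was not used by the naming rule. The median span of the members was 12.4 kb in GENCODE M21 on GRCm38, against 24.3 kb for the 12141 tested genes with a span. Of the members, 8 spanned more than 40 kb (Psma2, Psma8, Psmb7, Psmd1, Psmd9, Psmd11, Psmd14 and Psme4), as did 33.8% of tested genes. The members with the lowest called values at 168 h were among them: Psmd14 spans 88.7 kb, Psme4 109 kb and Psmd1 74.8 kb, while Psmd8 spans 6.51 kb, Psmb8 3.73 kb and Psmb4 2.87 kb. Psmd9 spans 80.7 kb and rose with LX-A1656. Short members fell as well: Psme1 spans 3.41 kb and Psmb10 2.71 kb, and both fell with LX-A1656 at 168 h. Of the members over 40 kb, Psma2, Psma8, Psmb7 and Psmd11 neither rose nor fell against PBS at 168 h in the fit to all libraries. Without replicate 3 of LX-A3928 at 168 h, Psma2 and Psmb7 fell with that oligonucleotide. So did Psma6 and Psmd6, which span 34.2 kb and 8.81 kb. The spans were looked at after the values were seen, and no test of span was made.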

How the data were processed

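The deposited table holds raw counts of reads for each gene. Per the labels' protocols, libraries came from TriPure total RNA and the mouse AmpliSeq Transcriptome kit. The aligner, build, counting tool and strand were not given in the sources used here. All 48 columns joined to a sample, and 0 columns belonged to no sample. Library totals ranged from 8140065 to 17191129 (median 10659453). PCR reads that carry no molecular identifier are not separate molecules, so counting limits cover counting error only.

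Counts were tested in R 4.3.3 with edgeR 4.0.16. The filterByExpr function (minimum count 10, 12 groups) kept 12672 of 23930 genes with at least 99.891% of the counts of each library. Libraries were scaled with TMM factors (0.7943 to 1.313), and 12 group means were fitted to all 48 libraries by the robust quasi-likelihood method (36 residual degrees of freedom, common biological coefficient of variation 0.2114). The SE was taken as the size of the log2 difference over the root of the F statistic. The 23 comparisons were 9 with PBS, 9 pairs of oligonucleotides, 3 interactions and 2 of PBS over time, and p-values were adjusted by Benjamini-Hochberg over the genes tested. Intervals of pair differences use the t distribution with those degrees of freedom. Fitting was tested on simulated data.

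Values per library are given for the inducible genes, the constitutive catalytic subunits and, in each other class, the called members with the highest and lowest fold change against PBS; up to 3 called genes of each other list are named. Psmc5, Psmd4 and Psmd1 were named after their values were seen. The members and lists were chosen with earlier results of these data known. Lists were class I antigen presentation, interferon signalling, NRF2 targets, heat shock, proteasome partners, the NFE2L1 pathway, and ubiquitin and E1, beside cell type markers. Alternatives were RLE scaling, library totals alone, no filter, DESeq2 1.42.0, only the libraries compared, a replicate block and leaving out each library. Sequences came from RefSeq and spans from GENCODE M21, both on GRCm38.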

Additional observations from a re-analysis of the deposited data

Results flagged for a closer look

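Dixon's test was run on 240 groups of 4 libraries, over the 20 members given per library. In 21 of them the highest or lowest library lay far from the other 3. For independent groups chance alone flags about 1 in 20, or 12, but the members share the same libraries. The share over all tested genes was not counted, so the count is not read as particular to the members. Replicate 3 of LX-A3928 at 168 h was the highest for Psmc6 (401 CPM, others 69.0 to 76.5), Psmb7 (1047, others 257 to 372), Psma4 (1040.0, others 277 to 341) and Psmd5 (159, others 68.8 to 81.1). Replicate 1 of LX-A1656 at 72 h was the highest for Psma7 (428 CPM, others 255 to 272) and Psmb4 (374, others 264 to 277), and replicate 4 of LX-A3928 at 72 h for Psma4 (546, others 363 to 382). Replicate 4 of LX-A1656 at 168 h was the highest for Psmd5 (53.3 CPM, others 36.9 to 38.6) and Psmf1 (169, others 127 to 130), and replicate 3 the lowest for Psmb6 (106, others 125 to 129). At 168 h with LX-A2003, replicate 4 was the highest for Psmd14 (32.5 CPM, others 15.7 to 17.4) and replicate 2 the lowest for Psmg1 (4.74, others 6.69 to 6.85). At 24 h with LX-A2003, replicate 2 was the lowest for Psmb9 (8.65 CPM, others 12.9 to 13.7) and for Psmc6 (70.2, others 97.6 to 101), and replicate 1 the highest for Psmb10 (39.6, others 29.9 to 30.8). In PBS at 72 h, replicate 1 was the highest for Psmd8 (450 CPM, others 359 to 372) and the lowest for Psmb7 (347, others 383 to 390), and replicate 4 the highest for Psma4 (394, others 341 to 346). In PBS at the other times the libraries were replicate 1 at 168 h for Psme1 (136 CPM, others 105 to 107), replicate 3 at 168 h for Psmg4 (26.0, others 18.7 to 19.7) and replicate 4 at 24 h for Psmd14 (24.1, others 57.6 to 63.2).

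The effect against PBS differed between 24 h and 168 h for a member in 19 tests by the interaction term. On the log2 scale, with LX-A1656, it changed by -0.93 for Psmb9, -1.22 for Psmb10, 0.42 for Psmc1, -0.68 for Psmd5, 0.86 for Psmd8, -0.96 for Psmd14, -1.09 for Psme1 and -1.17 for Psme4. With LX-A2003 it changed by -0.62 for Psma6, -0.95 for Psmd1, 0.95 for Psmd8, -0.51 for Psmd12, -1.07 for Psme4 and -0.88 for Psmg2. With LX-A3928 it changed by 0.74 for Psmb8, 1.25 for Psmb9, 0.79 for Psmb10, 0.88 for Psmd8 and 0.59 for Psmg4. With library totals alone, the called changes were 14 positive and 1 negative with LX-A1656 and 11 positive and 0 negative with LX-A2003.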

How the results depend on the processing

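Of 78 member calls against PBS, 76 held with DESeq2, 74 with RLE scaling, 63 with library totals alone, 59 without a filter and 61 with only the libraries compared. With library totals alone the counts of members called were 25 for LX-A1656 and 25 for LX-A3928 at 168 h, 29 and 28 for LX-A2003 and LX-A3928 against LX-A1656 at 72 h, and 15, 11 and 19 for the interactions of LX-A1656, LX-A2003 and LX-A3928, and Psmb2 with LX-A1656 and Psmc3 with LX-A2003 at 168 h turned to 0.14 and 0.11. With only the libraries compared they were 1 (Psmg2) for LX-A2003 and 1 (Psmg2) for LX-A3928 at 24 h, 11 for LX-A2003 at 72 h, 4 for LX-A3928 at 168 h, 5 for LX-A3928 against LX-A1656 at 24 h and 5 at 168 h, and 0 for LX-A3928 against LX-A2003 at 168 h. Without a filter they were 2 for LX-A2003 at 72 h, 0 for LX-A3928 against LX-A1656 at 24 h and 3 for the LX-A2003 interaction. The cause was not tested, except that fewer libraries or more genes enter these fits.

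Leaving out 1 library gave 2 to 5 members called for LX-A2003 at 72 h, 8 to 18 for LX-A2003 and 8 to 16 for LX-A3928 at 168 h, 0 to 2 for LX-A3928 against LX-A1656 at 24 h, 8 to 11 for LX-A2003 against LX-A1656 at 72 h, 0 to 13 for LX-A3928 against LX-A2003 at 168 h, 3 to 9 for the LX-A2003 interaction and 3 to 8 for that of LX-A3928. Beside the libraries named with these results above, the count moved by over 1.5 times for LX-A2003 against LX-A1656 at 72 h without LX-A2003 replicate 2 (8), for the LX-A2003 interaction without its replicate 2 at 168 h (3), for the LX-A3928 interaction without PBS replicate 2 or 4 at 168 h or LX-A3928 replicate 3 at 24 h (3 each) or replicate 3 at 168 h (8), and for LX-A3928 against LX-A1656 at 24 h without LX-A1656 replicate 4 (2). With LX-A3928 at 168 h, leaving out 1 library gave -0.075 to 0.63 for Psmb1 and -0.26 to 1.078 for Psmc6, the lowest without replicate 3.

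Replicate numbers did not pair the samples: correlations of deviations ran from -0.499 to 0.543, and in no comparison were all over 0.1. With the replicate number as a block the counts were 26, 5 and 6 at 72 h and 13, 14 and 11 at 168 h. Over all genes, the count with only the libraries compared was 803 for LX-A1656 (363 in the fit to all libraries), 754 for LX-A2003 (265) and 1435 for LX-A3928 (413) at 24 h, 2509 for LX-A2003 at 72 h (1524) and 3208 for LX-A3928 at 168 h (6087). Between oligonucleotides it was 154 (36), 1455 (368) and 77 (19) for the pairs at 24 h, and 2870 (5278) and 29 (1026) for LX-A3928 against LX-A1656 and LX-A2003 at 168 h. DESeq2 gave 409 for LX-A2003 at 24 h, 81 for LX-A2003 against LX-A1656 at 24 h, 137 (91) for LX-A3928 against LX-A2003 at 72 h, and 32 (10) and 267 (131) for PBS over time. No filter gave 22 for LX-A2003 against LX-A1656 and 229 for LX-A3928 against LX-A1656 at 24 h, and 73 for PBS at 168 h against 24 h. Depth limits the lowest members, Psmb11 and Psma8.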
